A study of Homo sapiens with 2 samples.

Results

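The genes described here are 10 targets and regulators of the amino acid response that ATF4 directs, namely ATF4, ASNS, PSAT1, PHGDH, CHAC1, DDIT3, DDIT4, TRIB3, SESN2 and ATF3. They were chosen by gene symbol, with earlier results of these data known, and their transcripts were found by Ensembl identifier in the deposited transcript files. All 10 were among the 49627 genes listed, and 7 of them, with a mean of at least 1 FPKM over both libraries, were among the 11186 genes at that level. FPKM counts fragments per kilobase of a transcript's length and is scaled to each library's fragments.

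RNA was sequenced from MDA-MB-231, a line of human breast cancer cells of the triple-negative class, grown in L15 medium with fetal bovine serum and without added carbon dioxide. In the RBMS1 knockdown library the cells stably carried an shRNA against the RNA-binding protein RBMS1 in the lentiviral plasmid pLKO.1, and the control library is labelled as the control of that knockdown, for which the study's methods name the empty pLKO.1 vector. Both libraries share the L15 medium, and the methods select and keep such stable cells in puromycin. There was 1 library per group, so there was no replicate check, and every difference below describes these 2 libraries only.

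ATF4 is a transcription factor of the bZIP family and the main effector of the integrated stress response. Kinases that sense missing amino acids, unfolded protein in the endoplasmic reticulum, double-stranded RNA or low haem phosphorylate eIF2α, which slows translation in general while the ATF4 mRNA is translated more through its upstream open reading frames. ATF4 then pairs with other bZIP proteins, mostly of the C/EBP family, on composite C/EBP-ATF elements and switches on amino acid synthesis, uptake and tRNA charging, together with regulators that limit mTORC1 and, when stress lasts, promote cell death. Since ATF4 is regulated largely at translation, its mRNA level does not measure its protein.

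The letters of that element were searched in RefSeq promoter windows, 250 bases before to 50 after an annotated start, on the GRCh38.p14 build. The motif TGATGNAA, read on both strands, lay in 3 of the 16 windows of the 10 genes, and 3.62% of all 35116 windows (1270) hold it. The 3 sites, of ASNS, CHAC1 and ATF3, are shown because they are the matches in these windows to the element through which ATF4 is known to act, with the match in capitals and each strand that of the gene.
ASNS, chr7:97872458-97872487, minus strand: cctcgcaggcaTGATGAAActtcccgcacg
CHAC1, chr15:40953251-40953280, plus strand: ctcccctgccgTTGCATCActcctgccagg
ATF3, chr1:212565205-212565234, plus strand: aaaggtcaggaTGATGGAAggctgtcatat
The ASNS match reads in the direction of the gene at bases -68 to -61 from the RefSeq start. ASNS-202, the measured reference transcript, starts 63 bp upstream of that RefSeq start, which is within the match. The CHAC1 match reads on the opposite strand, at -209 to -202 from a start that is 22 bp from the nearest start of a measured CHAC1 transcript. The ATF3 match lies at -191 to -184 of a start that is 43221 bp from the nearest start of the assembled transcripts that give the ATF3 value here. Each match is a run of letters and not a measured binding site, and other spellings of the element were not searched.

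The targeted gene was looked at first. RBMS1 had 24.1 FPKM in control cells and 3.76 FPKM after knockdown, or 15.6% of the control level. Markers of the cell line were present in both libraries, with the mesenchymal filament gene VIM at 496 FPKM after knockdown and 563 FPKM in control, and the receptor genes ESR1 and PGR and the epithelial cadherin gene CDH1 were each below 0.1 FPKM. The receptor gene ERBB2 was at 7.50 FPKM after knockdown and 7.005 FPKM in control, and the epithelial keratin genes were high, KRT8 at 160 and 122 FPKM and KRT18 at 162 and 190 FPKM. The identity markers were not all level between the libraries, with the calcium-binding protein gene S100A4 at 445 FPKM after knockdown against 178 FPKM, a log2 ratio of 1.32, and the epithelial adhesion gene EPCAM at 1.93 against 3.66 FPKM. Of 10 markers of blood, endothelial, stromal, liver and muscle cells, none had a mean of 1 FPKM, the highest single value was 0.962 FPKM, and the sum over the list was 0.907 FPKM in the knockdown library and 1.93 FPKM in the control library, with CD3E, CD68, CDH5 and MYH11 listed at 0 in both, which in these files can also be a failed estimate.

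Among the 10 genes, the clearest difference between both libraries was that of DDIT4, an inhibitor of mTORC1, which was 3.11-fold higher in the knockdown library. PSAT1, an enzyme of serine synthesis, was at 132% of control, and TRIB3, a pseudokinase that restrains ATF4, was at 59.3% of control. ATF4 itself was at 91.8% of control and ASNS, the asparagine synthetase, at 101% of control, with overlapping intervals. PHGDH and CHAC1 were below 1 FPKM in both libraries. The 6 transcripts that GENCODE release 29 gives DDIT3, which encodes CHOP, were listed at 0 in both libraries. A further reference transcript over the same introns, which that release does not hold, was not at 0 in the control library.

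**Figure D1:**
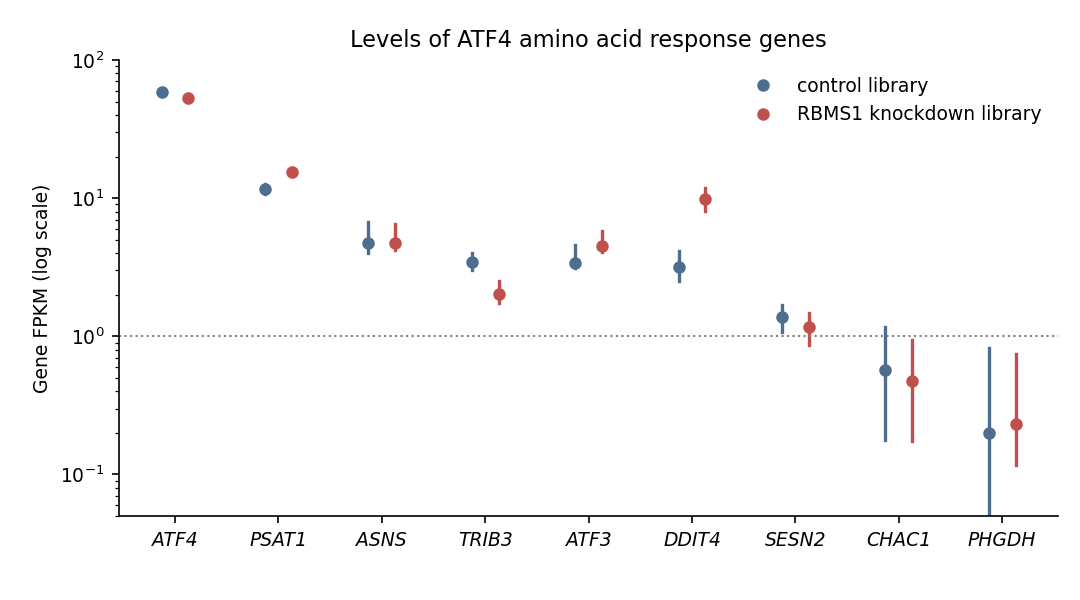
Gene FPKM on a log axis in the control library (blue) and the RBMS1 knockdown library (red) for the 9 genes above 0, in order of the control level. Bars are the intervals that Cufflinks gives within a library, summed over transcripts (the lower end for PHGDH in the control library runs below the axis), and the dotted line marks 1 FPKM. DDIT4, at 9.93 FPKM against 3.19 FPKM, is the gene whose points lie farthest apart, and ATF4 and ASNS have points at nearly one height.

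For ATF4 the level was 53.4 FPKM in the knockdown library (within-library interval 49.99 to 56.9) and 58.2 FPKM in the control library (54.9 to 61.6). The intervals overlapped, and the log2 ratio, computed throughout with 1 FPKM added to both values, was -0.12. ATF4 was the most abundant of the 9 genes above 0 in each library. The gene lies at chr22:39519695-39522685 on the plus strand. In the control library all of its FPKM was listed for ATF4-202, a protein-coding transcript with 3 exons and 1419 nucleotides, at 58.2 FPKM. In the knockdown library ATF4-202 stood at 49.5 FPKM and a further 3.95 FPKM was listed for ATF4-201, a protein-coding transcript with 2 exons and 2019 nucleotides that shares the start of ATF4-202. The control library had ATF4-201 listed at 0.

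Among the enzymes, PSAT1 encodes phosphoserine aminotransferase, the step of serine synthesis that follows PHGDH. PSAT1 (chr9:78297143-78330093, plus strand) was measured at 15.4 FPKM in the knockdown library (14.4 to 16.5) and 11.7 FPKM in the control library (10.8 to 12.6). The intervals did not overlap, the knockdown library was the higher one with a log2 ratio of 0.38, and 86.7% of the 11186 genes had a lower ratio. All of this FPKM was listed for 1 transcript, PSAT1-202, with 9 exons, and the other of the 2 reference transcripts was listed at 0 in both libraries.

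PHGDH encodes phosphoglycerate dehydrogenase, which commits a glycolytic intermediate to serine. PHGDH (chr1:119648411-119744226, plus strand) was at 0.232 FPKM after knockdown and 0.198 FPKM in control, below the level at which genes were compared. PHGDH-202 had a coverage of 2.98 reads per base after knockdown and 0.842 in control, and a difference between the libraries could not be read at this depth.

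ASNS encodes the enzyme that makes asparagine from aspartate with glutamine as the nitrogen donor, and 1 of its promoter windows holds the match printed above. ASNS (chr7:97852118-97872542, minus strand) was at 4.77 FPKM in the knockdown library (4.23 to 6.47) and 4.74 FPKM in the control library (3.98 to 6.75). With a log2 ratio of 0.01 it was the gene of the group with the nearest values in both libraries among those compared. In the knockdown library all of it came from ASNS-202, and in the control library 4.02 FPKM came from ASNS-202 and 0.718 FPKM from a transcript assembled from the reads that begins upstream of the annotated gene.

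CHAC1 encodes an enzyme that degrades glutathione and is a known target of ATF4. CHAC1 (chr15:40952962-40956519, plus strand) was at 0.474 FPKM in the knockdown library (0.173 to 0.941) and 0.571 FPKM in the control library (0.178 to 1.17). Both values were below 1 FPKM and their intervals overlapped widely.

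Among the regulators, DDIT4 (also known as REDD1) restrains mTORC1 through the TSC complex and is known to respond to lack of amino acids, hypoxia and glucocorticoids. DDIT4 (chr10:72273920-72276036, plus strand) was at 9.93 FPKM in the knockdown library (8.11 to 11.9) and 3.19 FPKM in the control library (2.49 to 4.16). The intervals lay well apart, the log2 ratio was 1.38, and 98.1% of the genes compared had a lower ratio. In RNA from whole cultures, more cells with the transcript and more of it per cell cannot be told apart. In the order by level of the 9 genes above 0, which leaves out DDIT3, DDIT4 ranked 6 in the control library, where its interval overlapped that of ATF3. It ranked 3 in the knockdown library, above ASNS and with no overlap.

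The DDIT4 value was the sum of several transcripts. The protein-coding transcript DDIT4-201 was at 5.17 FPKM in knockdown cells and 2.25 FPKM in control cells, a ratio of 2.29. DDIT4-203, a shorter transcript annotated with a retained intron, was at 4.09 FPKM after knockdown and listed at 0 in control. Assembled transcripts added 0.668 FPKM and 0.934 FPKM. The protein-coding transcript alone was thus higher in the knockdown library as well, but with 1 FPKM added its log2 ratio was 0.92, short of 2-fold. On the opposite strand DDIT4-AS1, an antisense gene at chr10:72274915-72275980 that covers part of DDIT4, was at 8.05 FPKM with RBMS1 knocked down and 3.91 FPKM in control. The library kit's use of strand is not given in the sources used here. If the reads kept no strand, those of DDIT4 and DDIT4-AS1 cannot be told apart. Of all single-exon assembled transcripts, 63 of 53179 (knockdown) and 50 of 57015 (control) were listed without a strand. Of those with a strand that lie in genes of 1 strand, 95.5% (knockdown) and 95.8% (control) carried the strand of that gene. Whether the kit kept strand was not tested.

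SESN2 encodes sestrin 2, a leucine sensor upstream of mTORC1. SESN2 (chr1:28259527-28282491, plus strand) was at 1.17 FPKM in the knockdown library (0.867 to 1.47) and 1.37 FPKM in the control library (1.07 to 1.67). The intervals overlapped and the log2 ratio was -0.13.

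TRIB3 is a known target of ATF4 and CHOP that feeds back on ATF4. TRIB3 (chr20:362835-397559, plus strand) was at 2.03 FPKM in the knockdown library (1.73 to 2.49) and 3.42 FPKM in the control library (3.005 to 4.02). The intervals did not overlap, the knockdown library was the lower one with a log2 ratio of -0.55, and 6.80% of the genes compared had a lower ratio. All of this FPKM was listed for TRIB3-201, a protein-coding transcript of 4 exons.

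ATF3 is a stress-induced bZIP factor downstream of ATF4. ATF3 (chr1:212565334-212620777, plus strand) was at 4.48 FPKM in the knockdown library (4.06 to 5.82) and 3.38 FPKM in the control library (3.13 to 4.62). The intervals overlapped, and the log2 ratio was 0.32. None of the 11 reference transcripts of ATF3 carried any of this FPKM in either library, although the files mark 4 of them in knockdown cells and 3 in control cells as fully covered by reads. The authors' comparison, which keeps only transcripts under a limit on p, holds 4 reference transcripts of ATF3. Their FPKM there sums to 5.66 after knockdown and 3.30 in control. The values came from assembled transcripts that share introns with ATF3 and run past its annotated end. The knockdown library held 2 of them, at 2.32 FPKM (2 exons, 8343 nucleotides) and 2.17 FPKM (4 exons, 9815 nucleotides). The control library held 1, at 3.38 FPKM (3 exons, 8245 nucleotides). Their structures differ between the libraries, so the ATF3 ratio does not compare like transcripts.

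DDIT3 encodes CHOP, the factor that links long-lasting stress to cell death. The 6 reference transcripts of DDIT3 (chr12:57516588-57521737, minus strand) in GENCODE release 29 were listed at 0 in both libraries. A reference transcript that this release does not hold, ENST00000618206 at chr12:57516595-57520511 on the minus strand, has 4 exons and its 3 introns are introns of DDIT3. It was listed at 17.0 FPKM (15.2 to 18.8) with a coverage of 195 reads per base in the control library, and at 0 with an upper bound of 0.0702 FPKM in the knockdown library. In each library the files mark 5 of these 7 transcripts as fully covered by reads, in the knockdown library too, where each is listed at 0. An exact 0 from Cufflinks can be a failed estimate, so no fold is given for DDIT3, and whether CHOP mRNA differed between the libraries cannot be read from these files. The gene MARS, whose end overlaps the end of DDIT3 on the other strand, was at 20.4 FPKM after knockdown and 18.4 FPKM in control.

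Read against all genes, the group showed no common direction. Of the 7 compared, 4 were higher and 3 lower in the knockdown library, where 52.8% of all genes compared were higher, and their median log2 ratio was 0.01 beside 0.02 over all genes. DDIT4 was the 1 gene of the 7 at least 2-fold higher, a class that holds 2.96% of all genes, and 0 were at least 2-fold lower, where 2.8% of all genes were. The within-library intervals lay apart with the knockdown library higher for PSAT1 and DDIT4, and 13.3% of all genes showed that, and with the knockdown library lower for TRIB3, as for 11.5% of all genes, so 3 of the 7 had intervals apart where 24.7% of all genes did. These intervals cover the uncertainty of the estimate within a library and nothing of the variation between cultures, and the shares were not matched for level. In the control library the intervals of ASNS, TRIB3, ATF3 and DDIT4 overlapped from each gene to the next in level, so no order among these neighbours can be given there. ASNS, ATF4 and PSAT1 have 12 annotated pseudogenes by name, which could share reads with them, and the highest of these was at 0.0468 FPKM.

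**Figure D2:**
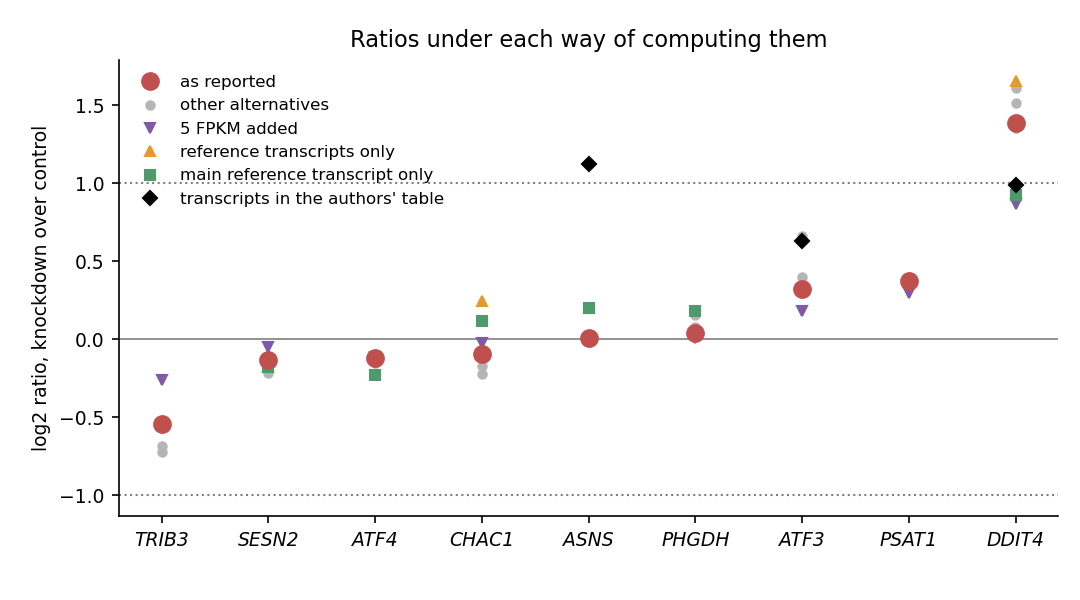
The log2 ratio of knockdown over control for the 9 genes above 0, with large red points for the values reported and other symbols for the other ways of computing them, among them another pseudocount, other scalings and other choices of transcripts. Black diamonds are transcripts of the authors' table, which keeps only those under a limit on p. Dotted lines mark 2-fold. DDIT4 and PSAT1 stay above 0 and TRIB3 stays below 0 throughout, and DDIT4 lies under 2-fold at 0.87 with 5 FPKM added, at 0.92 with its main transcript alone and at 0.99 in the authors' table.

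The wider pathway was described through 10 lists of related genes, 172 genes in all, of which 150 had a mean of at least 1 FPKM. Of these 150, 77 were higher and 73 lower in the knockdown library, 6 were at least 2-fold higher and 4 at least 2-fold lower, and 6.67% were past 2-fold in either direction, where 5.76% of all genes were. For 4 of the 10 past 2-fold 1 library was listed at 0. Among genes above 0 in both libraries 4.11% of 146 list genes were past 2-fold, beside 3.12% of all genes under the same filter. The within-library intervals lay apart, in either direction, for 54 of the 150 list genes, or 36%, beside 24.7% of all genes. Whether intervals lie apart depends on a gene's level too, and these shares were not matched for level.

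Upstream of ATF4, the kinases, subunits, exchange factor and phosphatase genes of eIF2 showed no gene at 2-fold among 14, with 8 higher, 6 lower and a median log2 ratio of 0.05. The ends of the list were 2 subunits of eIF2B, the exchange factor that phosphorylated eIF2α inhibits. EIF2B4 was at 9.85 FPKM in knockdown cells and 15.4 FPKM in control cells, and EIF2B2 at 23.5 and 12.9 FPKM. The EIF2B4 ratio of -0.59 turned to 0.50 with its main transcript alone, and the EIF2B2 ratio of 0.82 came to 3.10 with reference transcripts alone. With reference transcripts alone the kinase gene EIF2AK1 turned from -0.40 to 1.16 and EIF2S2, the beta subunit of eIF2, from 0.45 to -1.47, so the absence of a 2-fold difference in this list depended on the transcripts summed.

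Among the bZIP partners and relatives of ATF4, 13 of 17 genes were lower and 4 higher, with a median log2 ratio of -0.15, the lowest of the 10 lists. JUN, a subunit of AP-1, was at 9.64 FPKM with RBMS1 knocked down and 28.3 FPKM in control, a log2 ratio of -1.46. The related JUND had 36.2 FPKM after knockdown against 15.4 FPKM, and its log2 ratio of 1.18 came to 0.34 with the main transcript alone. These were the 2 genes of the list past 2-fold as reported, in opposite directions. FOS came from 0.64 to 1.17 with reference transcripts alone, and then was past 2-fold too.

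The genes of serine, glycine, proline and one-carbon synthesis showed no gene at 2-fold among 14, with 9 higher and 5 lower and a median of 0.09. MTHFD1L, a mitochondrial folate enzyme, had the largest decrease of the list at 8.68 and 10.7 FPKM, and its intervals overlapped. PYCR1, an enzyme of proline synthesis, came from 0.01 to 2.24 with reference transcripts alone. MTHFD2, a mitochondrial folate enzyme that is a known ATF4 target, was listed at 0 in both libraries, which in these files can also be a failed estimate.

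Of 15 amino acid transporters 9 were higher and 6 lower, with a median log2 ratio of 0.19, the highest of the lists. SLC7A5, the light chain of the LAT1 transporter of large neutral amino acids, was at 191 FPKM in knockdown cells and 82.0 FPKM in control cells, giving a log2 ratio of 1.21. That ratio depended on which transcripts were summed, and came to 0.82 with reference transcripts alone and to -0.59 with the main reference transcript alone. SLC7A11, the cystine transporter and a known ATF4 target, had the largest decrease, at 6.85 FPKM against 14.3 FPKM in the control library, a log2 ratio of -0.96 with intervals apart. SLC7A6, a transporter of cationic and neutral amino acids, was at 3.10 FPKM after knockdown and listed at 0 in control.

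Cytosolic aminoacyl-tRNA synthetases, a list that also holds the tRNA exporter XPOT, divided into 11 higher and 10 lower of 21, with a median of 0.01. QARS, the glutaminyl-tRNA synthetase, stood apart at 86.5 FPKM in the knockdown library and 30.9 FPKM in the control library, a log2 ratio of 1.45 that came to 2.60 with reference transcripts alone and to 5.87 with the main one alone. LARS, the leucyl-tRNA synthetase, came from -0.07 to 1.19 with reference transcripts alone. The largest decrease was that of YARS, the tyrosyl-tRNA synthetase, at 35.4 and 41.5 FPKM with overlapping intervals.

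Of 15 other targets of ATF4 and CHOP 10 were lower and 5 higher, with a median of -0.07. VEGFA, the angiogenic growth factor, was at 13.8 FPKM with RBMS1 knocked down and 30.002 FPKM in control, and with a log2 ratio of -1.07 was the 1 gene of this list past 2-fold. With the main transcript alone VEGFA came to -2.37 and CLGN, a chaperone gene, from -0.37 to -1.63, also past 2-fold. The largest increase was 0.19, for KLHL24 at 1.93 and 1.56 FPKM. In a list of paralogs of the genes described here, 2 of 6 genes were higher and 4 lower, with a median of -0.12. This list also holds PSPH, a gene of serine synthesis that is not a paralog of them, at a log2 ratio of 0.33. TRIB2, a relative of TRIB3, was at 11.2 FPKM after knockdown and 3.88 FPKM in control, so its log2 ratio of 1.32 had the opposite sign to that of TRIB3. TRIB1 had the largest decrease of the paralogs, at 1.38 and 1.85 FPKM with overlapping intervals.

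Of 22 genes of amino acid sensing by mTORC1, the process that DDIT4 and SESN2 feed into, 15 were higher and 7 lower, with a median of 0.12. RRAGA, a Rag GTPase that brings mTORC1 to the lysosome, was at 17.9 FPKM in knockdown cells and 8.62 FPKM in control cells, giving a log2 ratio of 0.97. NPRL2, a subunit of the GATOR1 complex that inhibits the Rag GTPases, was listed at 0 in the knockdown library and stood at 5.89 FPKM in the control library. With reference transcripts alone NPRL3, another subunit of GATOR1, turned from 0.51 to -1.27 and RPTOR, a subunit of mTORC1, from 0.59 to -0.25. CASTOR1, an arginine sensor, was at 1.09 FPKM after knockdown and listed at 0 in control, and its mean was below 1 FPKM.

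The other branches of stress signalling served for comparison. Of 17 genes of the ATF6 and XBP1 branches 7 were higher and 10 lower, none past 2-fold, with a median of -0.03. ERN1, the stress sensor IRE1, was at 1.53 FPKM with RBMS1 knocked down and 3.50 FPKM in control, and MANF, a secreted protein of the endoplasmic reticulum, at 70.3 and 41.6 FPKM. With reference transcripts alone the MANF ratio of 0.74 turned to -0.13, that of SEL1L, a part of the machinery that removes misfolded proteins, from 0.54 to -1.82 (then listed at 0 in the knockdown library), and that of the chaperone gene HSPA5 came from -0.03 to -1.04, the last 2 then past 2-fold. Of 13 p53 target genes, a group in which SESN2 is often placed as well, 8 were higher and 5 lower, with a median of 0.05. XPC, a DNA repair gene, was at 3.43 FPKM after knockdown and listed at 0 in control. FAS, a death receptor, was at 1.28 FPKM and listed at 0 likewise, with a mean below 1 FPKM. MDM2, the ubiquitin ligase of p53, was listed at 0 in the knockdown library and at 9.66 FPKM, all from assembled transcripts, in the control library, and with the reference transcripts that release 29 does not hold its values were 9.79 and 13.3 FPKM.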

How the data were processed

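RNA-seq was carried out on 2 libraries. The authors deposited transcripts with FPKM, within-library intervals and coverage. The submitters' processing notes name Bowtie2 2.0.6, TopHat2 2.0.9, Cufflinks 2.1.1 and Cuffdiff 2.1.1. The authors also deposited a comparison table of 7236 transcripts whose log2 fold changes, p-values and q-values were not used and of which no p exceeds 0.05. Its FPKM served as 1 alternative.

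Reference transcripts were joined by identifier to GENCODE release 29 on GRCh38, where 98.8% matched. A gene's FPKM and interval were sums over its reference transcripts and over assembled transcripts sharing at least 1 intron on its strand. Reads of near-identical or overlapping genes can be divided between them. The log2 ratio used 1 FPKM added to both values, and genes were compared from a mean of 1 FPKM. Depth in reads is unknown. Median coverage per FPKM, a guide to relative depth, was 12.3 for knockdown and 11.3 for control.

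Alternatives changed the pseudocount, the scaling, the filter and the transcripts summed. With 1 library per group no test was made. The genes and lists were chosen with earlier results of these data known. Named were the 10 genes, RBMS1, some of the 13 identity and 10 other cell type markers, and in each list the largest decrease and increase, every gene past 2-fold and every gene listed at 0 in 1 library. One gene that this rule picks is not reported here. MTHFD2, XPOT, LARS, CLGN, EIF2AK1, EIF2S2, NPRL3, RPTOR, PYCR1, HSPA5, SEL1L, FOS, PSPH, the markers printed and the genes overlapping the 10 were named after their values were seen. With 2 libraries, no genes of similar pattern were sought. Scripts ran in Python 3.11.15 with matplotlib 3.10.9 and were tested on simulated data.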

Additional observations from a re-analysis of the deposited data

Results flagged for a closer look

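DDIT4-AS1, the antisense gene over part of DDIT4, was at 8.05 FPKM in the knockdown library against 3.91 FPKM in the control library, a signal listed over the exons of DDIT4 that was not summed into its value. The kit's use of strand is not given, and if the reads kept no strand, those of both genes cannot be told apart. Within-library intervals were 6.89 to 9.22 and 3.07 to 4.74 FPKM.

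Over the last exons of ATF3 a single-exon transcript assembled in the knockdown library, at 1.44 FPKM, was given to no gene because it shares no intron, and the control library held 0 FPKM of this kind. With transcripts that overlap an exon added, the log2 ratio of ATF3 was 0.66 in place of 0.32.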

How the results depend on the processing

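No paired analysis was possible because each group holds 1 library, and for the same reason no replicate could be left out. Of the single-gene values of the 9 genes above 0 under the alternatives 81 stayed within the range that the within-library intervals allow and 1 (ASNS in the authors' table) moved beyond it, and DDIT4, PSAT1, TRIB3, ATF3, ATF4 and SESN2 kept their sign in all that gave a value (ATF3 gives none with reference transcripts only). The 1 gene at least 2-fold higher (DDIT4) became 0 with a pseudocount of 5 FPKM (log2 ratio 0.87) and 0 with the main reference transcript only (0.92), while its ratio reached 1.66 with reference transcripts only. TRIB3 ranged from -0.73 to -0.26 and PSAT1 from 0.29 to 0.40. CHAC1, below 1 FPKM, turned from -0.09 to 0.24 with reference transcripts only. In an alternative chosen after seeing the data, reference transcripts outside release 29 were added by shared introns. The number at least 2-fold lower was then 1, DDIT3, which is listed at 0 in the knockdown library so that no ratio is given. The authors' table keeps only transcripts with p up to 0.05, so its values were selected for a difference and bear on no direction. There DDIT4-201 gave 0.99, ATF3 0.63 and 3 minor transcripts of ASNS, listed at 0 in control, 1.12. List genes at least 2-fold higher, 6 as reported, were 3 with a pseudocount of 5 FPKM and 11 with reference transcripts only. Those at least 2-fold lower, 4 as reported, were 7 with reference transcripts only, 8 with the main reference transcript only, 2 with a mean of at least 5 FPKM and 2 among genes above 0 in both libraries. Over all genes 331 were at least 2-fold higher and 313 lower as reported, 553 and 507 with reference transcripts only, 496 and 468 with the main transcript only, 124 and 133 with a pseudocount of 5 FPKM, 140 and 138 from a mean of 5 FPKM, and 169 and 171 among genes above 0 in both libraries. The causes of these shifts were not tested beyond what each alternative leaves out.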
